A study of Mus musculus with 4 samples.

Results

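Activity-induced immediate early genes were followed in brain tissue of young and old C57BL/6 mice with and without a brain tumor. The set was fixed by name and held 10 genes (Fos, Fosb, Junb, Egr1, Egr2, Egr4, Arc, Npas4, Nr4a1 and Dusp1) of the 54532 genes listed in each library, and all 10 were found by their GENCODE M21 symbol. The tumor-bearing mice had received 50000 GL261 cells, a transplantable C57BL/6 glioma line, in the brain, and tissue outside the tumor mass was collected on day 21. Naive mice of each age group served as controls. The young mice were 8 to 12 weeks old, and the range given for the old mice is 8 to 90 weeks, so "old" is used only as labelled. All 4 groups were of the C57BL/6 strain with the treatment given as none, and the naive samples carry the same GL261 tag as the tumor-bearing ones. There was 1 library for each group, how many mice went into it is not given in the sources used here, and the groups could not be tested against each other. Each statement therefore compares libraries without a check between replicates. Levels are in FPKM (fragments per kilobase of exon, scaled to library depth). A range in parentheses behind a fold is its exact 95% interval from the recovered reads, and such ranges cover counting error only.

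Immediate early genes are transcribed within minutes of a stimulus, without new protein synthesis. In neurons, synaptic activity raises calcium, and calcium-dependent kinases and the MAP kinase cascade act on transcription factors such as CREB, SRF and MEF2 that are already bound at these genes. Many of the products are themselves transcription factors that switch on a later wave of genes for synaptic proteins and secreted factors. Some of the genes also respond to growth factors, cytokines and stress in glial, immune and tumor cells, while Npas4 and Arc are largely restricted to neurons.

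Each member that could be searched has a short letter sequence before at least 1 start site, the core of the cyclic AMP response element to which CREB binds. RefSeq promoters on GRCm38.p6 were at hand for 8 of the 10 genes, and the 250 bases before the start site were searched on both strands. The core element TGACG, which reads CGTCA when it lies on the other strand, was found before at least 1 start of 8 of these 8 genes, against 19.8% of 27025 genes in the same table and 17.8% of 32851 start sites. The full element TGACGTCA, which contains the core on each strand, was found for 1 of the 8, Dusp1, against 1.77% of all genes. The CArG box, the site of SRF, was found for 1 of the 8, Egr2, against 1.62% of all genes. A match of letters, or the lack of one, describes the window only, and sites farther from the start were not searched. Printed below are the windows of Npas4 and Egr4, whose levels differed most between the old libraries, of Dusp1 with the full element, of Nr4a1 with 4 core elements, and of Fos and Junb, AP-1 genes that were within 2-fold there. They lie at chr19:4989972-4990221 (Npas4, minus strand), chr6:85513590-85513839 (Egr4, minus), chr17:26508473-26508722 (Dusp1, minus), chr15:101266596-101266845 (Nr4a1, plus), chr12:85473640-85473889 (Fos, plus) and chr8:84978749-84978998 (Junb, minus), each written 5′ to 3′ with the core elements in capitals and the start site just after the last base.
Npas4: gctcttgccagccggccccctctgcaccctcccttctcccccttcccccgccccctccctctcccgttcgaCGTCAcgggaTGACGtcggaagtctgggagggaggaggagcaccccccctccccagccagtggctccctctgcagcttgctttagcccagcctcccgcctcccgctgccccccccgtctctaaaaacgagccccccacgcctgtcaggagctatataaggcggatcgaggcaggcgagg
Egr4: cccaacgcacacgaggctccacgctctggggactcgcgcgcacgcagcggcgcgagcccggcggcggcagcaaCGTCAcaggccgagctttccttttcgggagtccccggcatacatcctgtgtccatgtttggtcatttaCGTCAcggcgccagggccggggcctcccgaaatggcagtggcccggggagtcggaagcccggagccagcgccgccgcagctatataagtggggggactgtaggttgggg
Dusp1: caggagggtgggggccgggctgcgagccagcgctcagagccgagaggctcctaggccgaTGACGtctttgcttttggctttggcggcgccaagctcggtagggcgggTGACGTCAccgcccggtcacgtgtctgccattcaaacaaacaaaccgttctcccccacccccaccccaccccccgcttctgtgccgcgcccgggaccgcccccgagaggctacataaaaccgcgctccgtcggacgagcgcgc
Nr4a1: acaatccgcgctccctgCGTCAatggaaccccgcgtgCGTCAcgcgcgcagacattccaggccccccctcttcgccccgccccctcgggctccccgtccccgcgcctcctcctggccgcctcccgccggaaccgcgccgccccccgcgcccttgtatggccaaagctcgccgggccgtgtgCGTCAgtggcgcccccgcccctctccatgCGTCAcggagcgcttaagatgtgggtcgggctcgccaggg
Fos: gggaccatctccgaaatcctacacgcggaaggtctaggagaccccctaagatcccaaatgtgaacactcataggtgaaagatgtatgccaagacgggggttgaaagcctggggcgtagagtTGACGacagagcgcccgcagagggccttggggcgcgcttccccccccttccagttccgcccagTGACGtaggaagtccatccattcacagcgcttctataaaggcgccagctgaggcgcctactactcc
Junb: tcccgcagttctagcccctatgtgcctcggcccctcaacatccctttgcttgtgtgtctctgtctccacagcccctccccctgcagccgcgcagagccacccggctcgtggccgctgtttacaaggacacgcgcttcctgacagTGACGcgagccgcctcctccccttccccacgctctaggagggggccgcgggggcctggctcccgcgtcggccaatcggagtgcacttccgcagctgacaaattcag
The core elements lie at 179 and 169 bases before the start of Npas4, at 177 and 109 bases before that of Egr4, at 129 and 66 bases before that of Fos and at 106 bases before that of Junb, counted from the far end of the element. The core element was found for genes at least 2-fold lower in old tumor-bearing than in old naive tissue, and also for Fos and Junb. Its part in the differences described below was not tested, and Egr1 and Arc were not among the 8 genes searched.

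Reads recovered from the FPKM values came to between 19572251 and 23267926 fragments in genes per library. Brain identity was clear in all 4 libraries, with 18 of 18 pan-neuronal markers above 0 in each and a summed level of 2821.4 FPKM (young naive), 2490.7 FPKM (young with tumor), 3492.2 FPKM (old naive) and 759.9 FPKM (old with tumor). The libraries did not hold the same brain regions in the same proportion. The summed level of 10 cerebellum markers was 754.2 and 709.7 FPKM in the young libraries and 87.1 and 39.4 FPKM in the old ones, where Gabra6, a receptor subunit of cerebellar granule cells, had 3 reads and 0 reads. The summed level of 9 choroid plexus markers was 50.2 FPKM in the old naive library and between 490.2 and 521.5 FPKM in the other libraries. Dissection and age therefore cannot be told apart in comparisons of old with young tissue, nor dissection and tumor between the old libraries. There 5 of 7 measured choroid plexus markers were at least 2-fold higher with a tumor (median log2 ratio 2.40). Hippocampal markers went both ways, with 3 of 8 measured at least 2-fold higher and 2 lower (median 0.58). Their summed level was 51.1 FPKM with a tumor against 99.7 FPKM without, over the list of 10. Over all genes, 20.6% were higher and 31.4% lower by as much. In bulk tissue, fewer cells of a type and less RNA per cell cannot be told apart either.

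Among the AP-1 genes, Fos and Junb were the more abundant members. Fos (ENSMUSG00000021250, mm10 chromosome 12, 85473890 to 85477273), whose protein pairs with JUN proteins to form AP-1, stood at 9.59 FPKM in young mice without and 11.7 FPKM with a tumor, and at 17.0 FPKM in old mice without and 10.5 FPKM with one. The old naive library was the high one, and the others lay close together. Fosb (chromosome 7, 19302696 to 19310051), a Fos relative whose truncated product accumulates with repeated neuronal activity, stood at 2.68, 2.23, 5.12 and 0.854 FPKM in the same order. It was highest in old naive and lowest in old tumor-bearing tissue. Junb (chromosome 8, 84974484 to 84978718), a JUN protein of AP-1, stood at 17.5, 21.8, 44.0 and 52.9 FPKM. It was the only member whose highest level was in the old tumor-bearing library, and it overlaps Prdx2 on the opposite strand, from which its reads could not be separated if the libraries carried no strand.

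The EGR genes encode zinc finger transcription factors. Egr1 (ENSMUSG00000038418, chromosome 18, 34859823 to 34864984), widely used as a map of neuronal activity, was the most abundant of the set in 3 of the 4 libraries, at 52.0 FPKM in young mice without and 54.5 FPKM with a tumor, 119.7 FPKM in old mice without and 12.3 FPKM with one. Egr4 (chromosome 6, 85511121 to 85513589), a neuronal family member, stood at 16.8, 19.2, 35.9 and 3.0 FPKM in that order. Egr1 and Egr4 kept the same order of libraries, with old naive highest and old tumor-bearing lowest. Egr2 (chromosome 10, 67535475 to 67542188), which also directs myelination in Schwann cells and is induced in lymphocytes and macrophages, was the least abundant member in 3 libraries, at 1.12, 1.44, 3.33 and 2.33 FPKM. Unlike the other EGR members, it was lowest in young naive tissue.

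Arc (ENSMUSG00000022602, chromosome 15, 74669083 to 74672570), a synaptic protein that promotes the internalization of AMPA receptors, stood at 32.5, 30.4, 82.8 and 10.7 FPKM in the same order of libraries. Npas4 (ENSMUSG00000045903, chromosome 19, 4984355 to 4990316), a neuronal transcription factor induced by calcium influx that shapes inhibitory synapses, stood at 5.49, 8.67, 11.6 and 0.906 FPKM, on 464, 717, 752 and 87 reads. Both were high in old naive and low in old tumor-bearing tissue, and Npas4 spanned the widest range of the set, 12.8-fold from its lowest to its highest library. Nr4a1 (chromosome 15, 101254269 to 101274795), an orphan nuclear receptor also induced in T cells and macrophages, stood at 18.7, 18.2, 39.1 and 17.0 FPKM. Dusp1 (chromosome 17, 26505590 to 26562128), a phosphatase that ends MAP kinase signaling, stood at 11.9, 10.7, 19.3 and 6.54 FPKM. Its annotated span overlaps 4 other genes, among them Ergic1 on the opposite strand. A processed pseudogene and a sense intronic gene lie on its own strand. Nr4a1 was high in the old naive library alone, and Dusp1 spanned a 2.96-fold range.

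**Figure D1:**
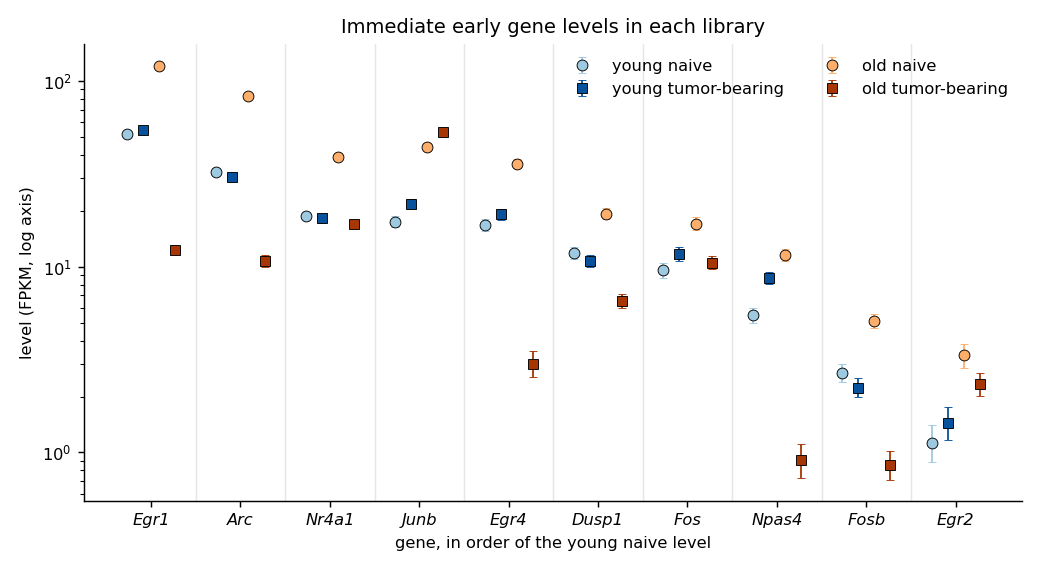
Level of each gene in the 4 libraries (FPKM, log axis), with genes in order of their young naive level and bars for exact 95% Poisson intervals of the reads, which cover counting error only. Old naive is the highest library for 9 of the 10 genes, and Junb reaches 52.9 FPKM in the old tumor-bearing library while Npas4 and Fosb are below 1 FPKM there.

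Within a library the order of levels was partly fixed. In young naive tissue Egr1 led, followed by Arc, then Nr4a1, Junb and Egr4, neighbours whose 95% Poisson intervals overlapped, and then Dusp1, Fos, Npas4, Fosb and Egr2, whose intervals did not. The old naive library had Egr1, Arc and Junb in front, with overlapping intervals only for Nr4a1 and Egr4 and for Dusp1 and Fos. In the old tumor-bearing library the order was another one. Junb led, Nr4a1 came second, Egr1 was the third, and Arc and Fos followed with overlapping intervals, while Npas4 and Fosb stood last and also overlapped.

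In young mice, the comparison of tumor-bearing with naive tissue asked whether a tumor elsewhere in the brain goes with a different level of these genes. Of the 10 members 0 were 2-fold apart in either direction (6.9% of 15500 genes were), with 0 at least 2-fold higher (5.05% of 15500 genes over the floor of 1 FPKM in at least 1 of the libraries) and 0 at least 2-fold lower (1.85%). The median log2 ratio of FPKM + 0.1 was 0.13, against -0.01 over all genes, with 6 members above 0 and 4 below. Npas4 differed most. Its level was 5.49 FPKM in naive mice and 8.67 with a tumor, or 1.58-fold higher (1.40 to 1.78). Junb was 1.25-fold higher (1.14 to 1.37), Fos 1.22-fold (1.07 to 1.38) and Egr4 1.14-fold (1.03 to 1.26). Fosb was 1.20-fold lower (1.02 to 1.41), and the intervals of Egr2, Nr4a1 and Dusp1 included 1.

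Related genes did not all stand with the 10 members in that comparison. Egr3, the EGR gene outside the set, had 45.2 FPKM without and 27.6 with a tumor (1.64-fold lower, 1.56 to 1.72), while Egr1 was 1.05-fold higher (1.007 to 1.09). Homer1, a synaptic scaffold with a short activity-induced form that a gene-level value does not separate from the long forms, was 1.94-fold lower (1.86 to 2.03). The list of delayed activity-induced neuronal genes, the later wave, had 18 of 19 measured members below 0 and a median log2 ratio of -0.32, with 1 at least 2-fold lower and 0 higher. Inhba, a subunit of activin, was 2.41-fold lower (2.0 to 2.93), Pcsk1, a prohormone convertase, 1.92-fold (1.76 to 2.09), Nptx2, a pentraxin that gathers AMPA receptors, 1.84-fold (1.68 to 2.03), and Scg2, a granin of secretory vesicles, 1.84-fold (1.77 to 1.92). The pan-neuronal list stood at a median of -0.19, with 16 of 18 below 0. Striatal markers stood at -0.29 (9 of 10 below 0), inhibitory markers at -0.21 (10 of 10) and excitatory forebrain markers at -0.05 (9 of 13). Of the 19 other immediate early transcription factors, 2 were at least 2-fold higher, Atf3 (3.20-fold, 1.79 to 6.01) and Maff (2.53-fold, 1.5 to 4.42), both at about 1 FPKM or less, and 0 were lower. Markers of other cells also stood higher in the young tumor-bearing library, and their part in these values was not tested. The summed level of 8 monocyte and macrophage markers was 35.7 against 10 FPKM, with Ly6c2 at 0 in the naive library, that of 8 T and NK cell markers 4.83 against 0.923 FPKM, with 4 at 0 in the naive library, and that of 8 cycling cell markers 7.97 against 1.58 FPKM. All 8 microglia markers were above 0 (median 0.46). The median of the other early transcription factors was 0.09, and that of the 22 other early effectors and feedback regulators 0.05, with 0 members 2-fold apart. The list of upstream kinases and transcription factors also holds coactivators, a phosphatase subunit, and NMDA receptor and calcium channel subunits. It had 0 of 28 members 2-fold apart and a median of -0.02.

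In old mice the same comparison gave large differences that split the set. Old tumor-bearing tissue had 7 of the 10 members at least 2-fold lower than old naive tissue (31.4% of 16488 genes were lower by as much) and 0 at least 2-fold higher (20.6%), with a median log2 ratio of -2.0 against -0.31 over all genes. Npas4 was 12.8-fold lower (10.3 to 16.2), Egr4 12.0-fold (10.1 to 14.3), Egr1 9.70-fold (9.15 to 10.3), Arc 7.71-fold (7.13 to 8.34) and Fosb 5.99-fold (4.91 to 7.36). Dusp1 was 2.96-fold lower (2.66 to 3.30) and Nr4a1 2.31-fold (2.15 to 2.47). Fos was 1.62-fold lower (1.45 to 1.82) and Egr2 1.43-fold (1.16 to 1.77), whereas Junb was 1.20-fold higher (1.13 to 1.28). Across the deposited scale and 3 other scalings between libraries, the direction held for every member but Egr2, whose log2 ratio ran from -0.50 to 0.06. The number at least 2-fold lower was 5 when libraries were scaled by fragments in genes.

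**Figure D2:**
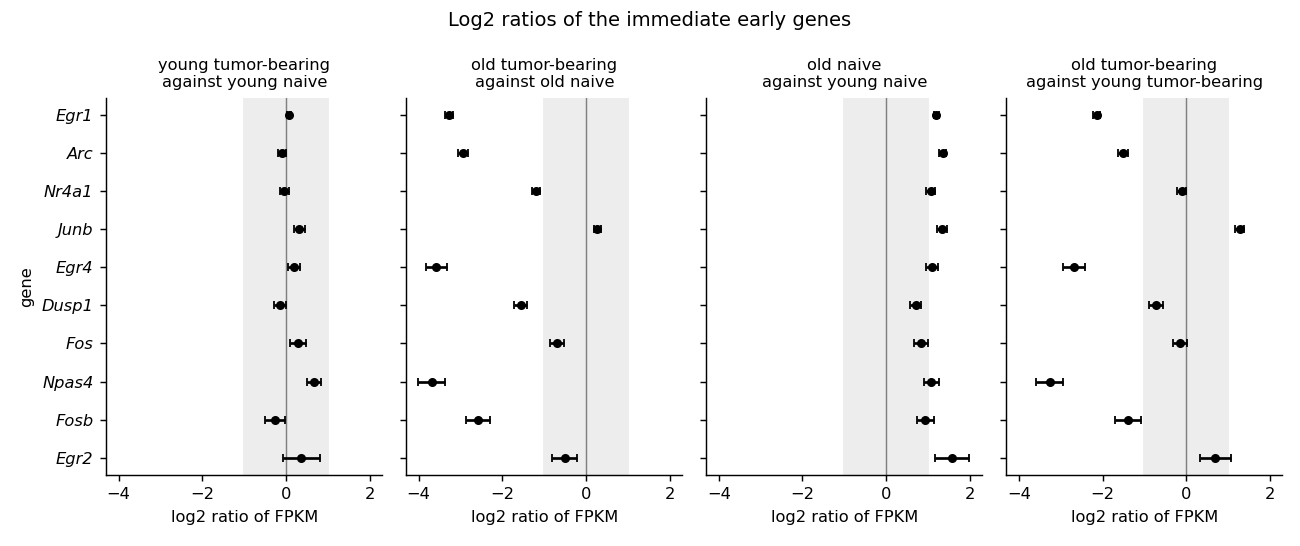
Log2 ratio of FPKM for each gene in 4 comparisons of libraries, with exact 95% intervals of the ratio of reads and the range within 2-fold shaded. In young mice all genes lie within the shaded range, and in old mice the tumor-bearing library is lower by up to 12.8-fold, with Junb alone to the right of 0.

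Markers of neurons moved with these values. All 13 excitatory forebrain markers were at least 2-fold lower in old tumor-bearing than in old naive tissue (median log2 ratio -3.0, summed level 95.6 against 750.5 FPKM), as were 10 of 10 inhibitory markers (median -2.52, 137.7 against 912.4 FPKM), 10 of 10 striatal markers (median -3.18) and 17 of 18 pan-neuronal markers (median -2.48), and no excitatory or inhibitory marker was at 0. Npas4 and Egr4, at log2 ratios of -3.54 each, and Egr1, at -3.27, lay below the lowest pan-neuronal marker (-2.95). These genes lay inside the range of the excitatory forebrain list (-3.72 to -1.32). When the median of the pan-neuronal list was set to 0, the median of the members was 0.48, with 4 at least 2-fold higher and 2 at least 2-fold lower. That scale moves all genes up by the same amount. The median over all genes, -0.31 on the deposited scale, therefore stays above that of the members. The share of all genes past 2-fold was not counted on it. On that scale Npas4 stood at a log2 ratio of -1.06, Egr4 at -1.05, Egr1 at -0.78, Arc at -0.45 and Fosb at 0.03, while Dusp1 stood at 0.93, Nr4a1 at 1.28, Fos at 1.79, Egr2 at 1.99 and Junb at 2.75. With the excitatory forebrain list at 0, a scale added after the values were seen, the same 4 genes lay between -0.54 and 0.06, and Junb stood at 3.26. Other cell types differed in both directions. Of 8 astrocyte markers 7 were below 0 (median -0.96), as were 8 of 8 oligodendrocyte markers (median -0.60) and 7 of 8 endothelial markers (median -0.51). The summed level of 8 monocyte and macrophage markers was 271.4 against 16.1 FPKM, that of 8 T and NK cell markers 41.9 against 0.557 FPKM, with Cd3e, Cd3d and Gzmb at 0 in the naive library, and that of 8 markers of cycling cells 159.4 against 1.13 FPKM, and their part in the levels of Junb, Fos, Egr2, Nr4a1 and Dusp1 was not tested.

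**Figure D3:**
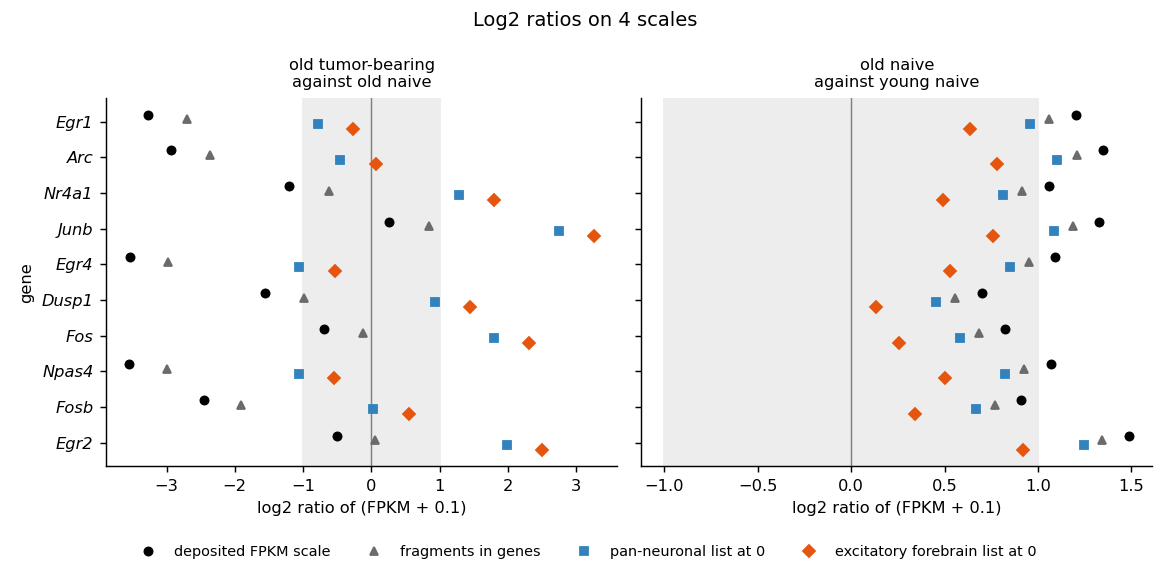
Log2 ratio of FPKM + 0.1 of each gene on the deposited scale, scaled by fragments in genes, and with the median of the pan-neuronal or the excitatory forebrain list set to 0 (range within 2-fold shaded). In the old tumor comparison Npas4, Egr4, Egr1 and Arc come to lie between -1.06 and 0.06 on the neuronal scales and Junb reaches 2.75 and 3.26. These scales shift every gene alike, and the median over all measured genes also lies above 0 on them there. In old against young naive tissue the genes shown all stay above 0 on each scale.

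Other genes of the early response lay on both sides in the same comparison, where the shares past 2-fold over all genes were 20.6% upward and 31.4% downward. Of 19 other immediate early transcription factors, 8 were at least 2-fold higher in old tumor-bearing tissue and 5 lower (median 0.33). The higher ones were Jun, Fosl1, Atf3, Ier2, Klf4, Maff, Csrnp1 and Crem. Jun, the founding partner of Fos in AP-1, was at 15.1 and 78.7 FPKM (5.20-fold higher, 4.82 to 5.62), Maff, a small MAF protein, at 0.517 and 8.82 FPKM (17.0-fold, 11.0 to 27.8), and Atf3, a stress-induced factor, had 8 and 247 reads (20.8-fold, 10.4 to 48.7). The lower ones were Egr3, Nr4a2, Nr4a3, Ier5 and Bhlhe40, with Egr3 at 55.5 and 5.89 FPKM (9.41-fold lower, 8.63 to 10.3). The 22 other early effectors and feedback regulators had 6 higher and 6 lower members (median -0.44), shares close to those over all genes. Among them Ccn1, a matrix protein induced by serum, was 4.38-fold higher (3.60 to 5.39), and Arl4d, a small GTPase, 7.22-fold lower (5.58 to 9.46), Homer1 6.13-fold lower (5.71 to 6.58) and Plk2, a kinase that weakens excitatory synapses after prolonged activity, 4.71-fold lower (4.4 to 5.05). Of 20 delayed activity-induced neuronal genes, 18 were at least 2-fold lower and 1 higher (median -2.51). Penk, the enkephalin precursor, was 10.6-fold lower (9.75 to 11.5), Lingo1, a membrane protein of neurons, 9.90-fold (9.32 to 10.5) and Nptx2 9.50-fold (7.98 to 11.4). Baz1a, a chromatin remodeling subunit that is not restricted to neurons, was the exception (11.7-fold higher, 9.13 to 15.2). Of the 28 genes on the upstream list, 20 were at least 2-fold lower and 2 higher (median -1.36). Mef2c, a MEF2 factor of neurons, was 8.70-fold lower (8.27 to 9.16), Camk4, a nuclear calcium-dependent kinase that phosphorylates CREB, 7.41-fold (6.39 to 8.62), Camk2a, a kinase of excitatory synapses, 6.08-fold (5.98 to 6.18) and Grin1, the obligatory NMDA receptor subunit, 5.95-fold (5.70 to 6.22).

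**Figure D4:**
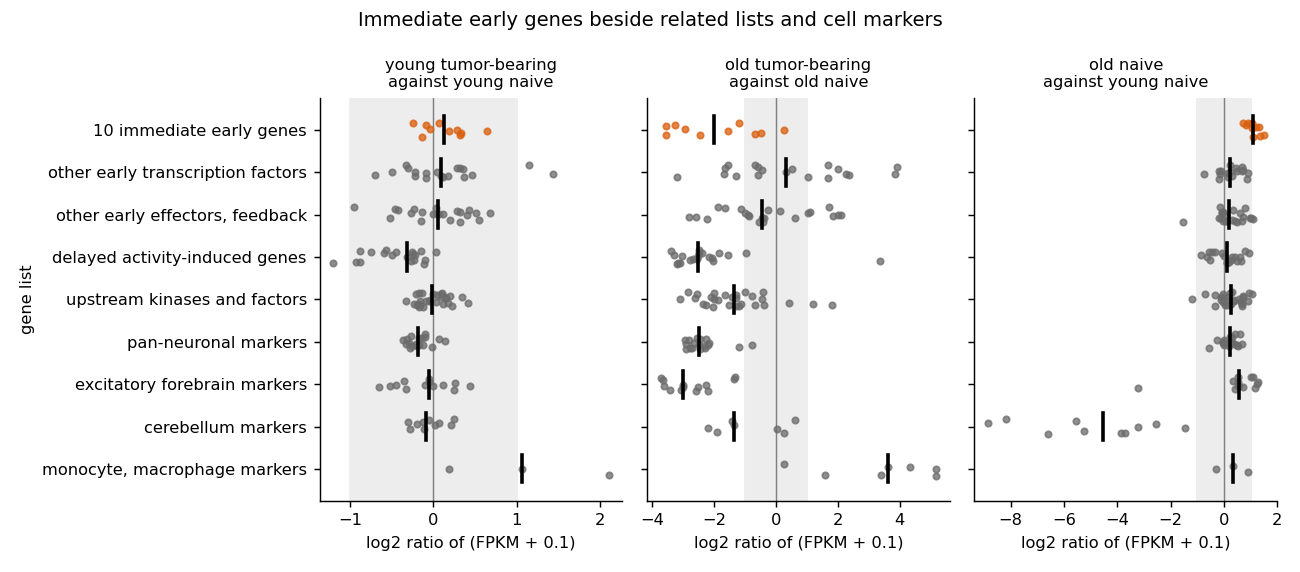
Log2 ratio of FPKM + 0.1 of each measured gene (points) and list median (bars) in 3 comparisons, with the range within 2-fold shaded and horizontal scales that differ between panels. In old tumor-bearing tissue the 10 immediate early genes have a median of -2.0, between the pan-neuronal markers at -2.48 and the other early transcription factors at 0.33, and in old naive tissue they stand at 1.08 while cerebellum markers are far below 0.

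The comparison of old with young naive tissue asked how the set differed with age in the absence of a tumor. The same old naive library also served in the old tumor comparison, so the results of these comparisons are not independent. All 10 members were higher in the old naive library, 7 of them at least 2-fold (6.71% of 15419 genes were higher by as much) and 0 lower (4.93%), with a median log2 ratio of 1.08 against 0.06 over all genes. Egr2 was 2.96-fold higher (2.26 to 3.92), Arc 2.55-fold (2.41 to 2.69), Junb 2.52-fold (2.31 to 2.74), Egr1 2.3-fold (2.22 to 2.39), Egr4 2.14-fold (1.95 to 2.35), Npas4 2.12-fold (1.88 to 2.38) and Nr4a1 2.09-fold (1.95 to 2.23). Fosb at 1.91-fold (1.66 to 2.20), Fos at 1.78-fold (1.57 to 2.01) and Dusp1 at 1.63-fold (1.48 to 1.79) stayed under 2-fold. The members thus lay in a narrow band, from 1.63-fold to 2.96-fold. The number at least 2-fold higher was 3 with equal FPKM totals, 3 with the pan-neuronal list at 0 and 0 with the excitatory forebrain list at 0, where every member still stood above 0 (median 0.51).

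Markers of brain regions differed between the same libraries, in both directions. Of 13 excitatory forebrain markers, 12 were above 0 in old against young naive tissue (median log2 ratio 0.57, summed level 750.5 against 458.1 FPKM), 5 of them at least 2-fold, and the exception, Neurod1, is also a marker of cerebellar granule cells. All 10 striatal markers were above 0 (median 0.88, 416.4 against 212.7 FPKM). Of 7 measured markers of the hippocampus and dentate gyrus, 5 were at least 2-fold lower and 0 higher (median -1.25, 99.7 against 108.2 FPKM over the list of 10), and all 10 cerebellum markers were at least 2-fold lower (median -4.56). The part of these regions in the level of the members was not tested. Other genes of the early response were closer to equal by their medians. Over all genes, the shares past 2-fold were 6.71% upward and 4.93% downward, so the small counts below say little about these lists. The other immediate early transcription factors had 0 of 17 measured members 2-fold apart (median 0.24), with Ier5 1.89-fold higher (1.77 to 2.03), Bhlhe40 1.64-fold higher (1.55 to 1.73) and Crem, a CREB relative, 1.69-fold lower (1.43 to 2.01). The early effectors had 2 higher and 1 lower of 22 (median 0.19). Per1, a clock gene that is also induced by activity, was 2.12-fold higher (2.0 to 2.25) and Arl4d 2.06-fold (1.73 to 2.45), and Dusp5, a nuclear phosphatase of ERK, was 2.93-fold lower (2.52 to 3.41). Nab2, a corepressor that EGR proteins induce and that limits their activity, was at 7.42 and 14.6 FPKM, 1.96-fold higher (1.74 to 2.22). The delayed list had 0 of 19 members 2-fold apart (median 0.11), with Nrgn, a calmodulin-binding protein of forebrain neurons, 1.90-fold higher (1.86 to 1.94) and Scg2 1.80-fold lower (1.72 to 1.88). Of 28 upstream genes, 1 was higher, Camk2a (2.06-fold, 2.03 to 2.08), and 1 lower, Rps6ka1, which encodes the ribosomal S6 kinase RSK1 (2.34-fold, 2.08 to 2.64), with a median of 0.25.

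Set against young tumor-bearing tissue, old tumor-bearing tissue had 5 members at least 2-fold lower (29.8% of 16562 genes) and 1 higher (19% of them, and 48.9% for either direction), with a median log2 ratio of -1.0 against -0.28 over all genes. This comparison uses the libraries already described, so it adds no independent sample. Npas4 was 9.57-fold lower (7.66 to 12.1), Egr4 6.38-fold (5.35 to 7.64) and Egr1 4.42-fold (4.16 to 4.70), followed by Arc at 2.83-fold (2.60 to 3.09) and Fosb at 2.62-fold (2.11 to 3.26). Junb was 2.42-fold higher (2.26 to 2.61) and Egr2 1.61-fold (1.26 to 2.08). The intervals of Fos and Nr4a1 included 1, and their direction depended on scaling. The old tumor log2 ratio minus the young one ran from -4.19 for Npas4, over -3.73 for Egr4 and -3.34 for Egr1, to -0.05 for Junb, with a median of -1.80 against -0.32 over 17441 genes.

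Ratios between genes within a library do not depend on how libraries are scaled, and they show how the make-up of each family differed. Families were formed from genes already on the lists after values were seen. In the FOS family, Fos held 55.9% of the summed FPKM in old naive and 35.6% in old tumor-bearing tissue, Fosb 16.8% and 2.89%, and Fosl1, a FOS protein common in dividing and migrating cells, 11.2% and 37.6%. The level of Fosb relative to Fos was 0.280 in young naive, 0.192 in young tumor-bearing, 0.30 in old naive and 0.0813 in old tumor-bearing tissue. In the JUN family, Jun held 22.2%, 24.1%, 13% and 46.2% in that order, and Junb 22.8%, 25.4%, 37.7% and 31.1%. The ratio of Jun to Junb was therefore 0.970 in young naive, 0.344 in old naive and 1.49 in old tumor-bearing tissue. In the EGR family, Egr1 held between 45.2% and 55.8% in all libraries, while Egr2 went from 0.975% in young naive and 1.55% in old naive to 9.88% in old tumor-bearing tissue. Egr3 held 39.3% in young naive and between 25% and 26.9% in the other libraries. In the NR4A family, Nr4a1 held 55.0% and 56.0% in the young libraries and 74.0% and 78.2% in the old ones. Relative to Fos, Npas4 stood at 0.573, 0.743 and 0.682 in the first 3 libraries and at 0.0861 in old tumor-bearing tissue, whereas Arc relative to Egr1 lay between 0.557 and 0.870 in all 4.

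**Figure D5:**
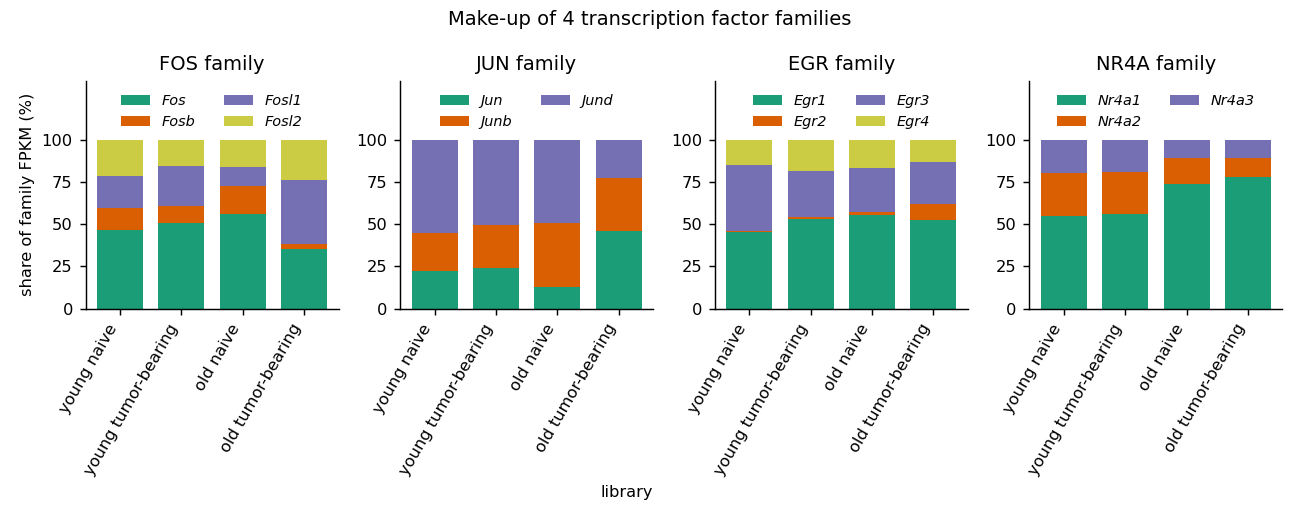
Share of each gene in the summed FPKM of the FOS, JUN, EGR and NR4A families, in percent, with 1 bar per library. Jun and Fosl1 take larger shares in the old tumor-bearing library (46.2% and 37.6%) than in the others, and the share of Egr1 stays between 45.2% and 55.8%.

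The profiles over the 4 libraries, each centred on its own mean log2(FPKM + 0.1), placed the members in a graded order. Egr1 and Egr4 were nearest to each other (Euclidean distance 0.37 on the log2 scale), Npas4 was nearest to Egr4 (0.42), and Fosb and Arc were nearest to each other (0.38). Fos and Nr4a1 formed another near pair (0.45), and Junb and Egr2 a looser one (0.59). Of 9983 protein-coding genes at 5 FPKM or more in at least 1 library, those nearest to the median profile of the members, the members left out, included Stac2, Foxp1, Pou3f1, Adrb1, Kcna4, Ptk2b, Bcl11b, Ppp1r9b and Dlk2, at distances of 0.08 to 0.16. The members themselves lay at 0.34 (Fosb) to 2.14 (Junb) from that median profile. The named genes are therefore near a composite and not near each member. Bcl11b, a factor of deep-layer cortical and striatal neurons, stood at 11.8, 11.4, 20.8 and 4.87 FPKM, and Foxp1, which is also on the striatal list, at 7.11, 6.09, 12.5 and 3.0 FPKM. That these genes were highest in old naive and lowest in old tumor-bearing tissue follows from how they were picked. With 4 libraries the likeness is a description.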

How the data were processed

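Poly-A RNA of brain tissue was sequenced as paired-end Illumina libraries, 1 per group, and groups were taken from the labels. The labels' protocols describe strand-specific and unstranded preparation without saying which was used. Per the submitters' processing notes, HISAT2 and the mm10 build were used. The deposited values are FPKM, per the file headers. Neither the counting program nor whether mice were pooled is stated in the sources used here, and genes that overlap on opposite strands could not be told apart.

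Symbols and exon lengths came from GENCODE M21, which named 54495 of 54532 genes. FPKM times exon length came in whole steps, which gave each library's depth divisor (15646445 to 23253749) and the reads per gene. Between 96.9% and 97.1% of genes above 0 came out whole, within 0.03 reads or 2e-05 of the value. This step was tested on simulated data. Divisor and fragments in genes differed, with ratios of 0.879 (young naive), 0.914 (young with tumor), 0.797 (old naive) and 1.19 (old with tumor), so scaling was varied. Mitochondrial genes held 5.51%, 4.72%, 5.44% and 2.12% of fragments.

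Genes counted as measured when either library of a comparison reached 1 FPKM. Log2 ratios are of FPKM + 0.1, which understates differences of low genes, and a gene was counted at 2-fold on that scale. Folds are ratios of FPKM, with exact conditional binomial 95% intervals. Reads carried no molecular identifiers and can be PCR copies, so these cover counting error only. No count test was run. The 21 gene lists, the members among them, were chosen with earlier results of these data known. Srf, Neurod1 and Pvalb are each on 2 lists, and Dlx6os1, with more than 1 identifier, was left out. Genes named from the lists were, per comparison, at most 4 of a list with the largest log2 ratios in size, the 10 genes with the likest profile, of which 1 is not reported here, and others where the text counts them. Python 3.11.15, pandas 2.3.3, numpy 2.4.6, scipy 1.17.1 and matplotlib 3.10.9 were used.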

Additional observations from a re-analysis of the deposited data

Results flagged for a closer look

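For 4 members the difference between tumor-bearing and naive tissue ran in opposite directions in young and old mice, with intervals of the reads that excluded equality on each side. On the deposited scale each was higher in young and lower in old tumor-bearing tissue. The old log2 ratio minus the young one was -0.97 for Fos, -3.34 for Egr1, -3.73 for Egr4 and -4.19 for Npas4. For Fos the direction depended on the scaling, and for Egr1 the young difference was small. The old log2 ratio of Fos was -0.12 with libraries scaled by fragments in genes, and with the pan-neuronal list at 0 it was 1.79 in old and 0.47 in young mice, the same direction. The young log2 ratio of Egr1 was 0.026 with median-of-ratios scaling. With 1 library per group, the difference between ages was not tested.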

How the results depend on the processing

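In young mice, the counts of 0 members 2-fold apart in each direction held under all alternatives, and the median of 0.13 was 0.31 with the pan-neuronal list set to 0. For old tumor-bearing against old naive tissue, the median of -2.0 was -1.58 with a pseudocount of 1, -2.45 with a floor of 5 FPKM (9 members), -1.64 with median-of-ratios scaling, -1.58 with equal FPKM totals and -1.44 with fragments in genes. With the pan-neuronal list at 0 it was 0.48 (4 members higher, 2 lower), and Fos, Fosb, Egr2, Nr4a1 and Dusp1 turned to 1.79, 0.032, 1.99, 1.28 and 0.93. With the excitatory forebrain list at 0, chosen after seeing the data, it was 1.0 (5 higher, 0 lower), and Fos, Fosb, Egr2, Arc, Nr4a1 and Dusp1 turned to 2.31, 0.55, 2.50, 0.065, 1.80 and 1.45. For old against young naive tissue, the 7 higher members and median of 1.08 became 3 and 0.85 with equal FPKM totals, 4 and 0.94 with fragments in genes, 3 and 0.84 with the pan-neuronal and 0 and 0.51 with the excitatory list. For old against young tumor-bearing tissue, the 1 higher member and median of -1.0 became 2 and -0.62 with median of ratios and 2 and -0.64 with fragments in genes, the median was -0.72 with a pseudocount of 1, and the pan-neuronal list at 0 gave 5 higher, 1 lower and 1.05, where of the members 2-fold apart Fosb and Arc turned to 0.76 and 0.56. The excitatory list gave 5 higher, 0 lower and 1.16, where of the members 2-fold apart Fosb, Egr1 and Arc turned to 0.87, 0.030 and 0.67. The neuronal scales shift all genes by the difference of their own list, so the members keep their place relative to all genes. For old tumor-bearing against old naive and against young tumor-bearing tissue, medians over all genes were -0.31 and -0.28 on the deposited scale. They stay above those of the members on the neuronal scales. The shares of all genes past 2-fold were not counted on these scales. The cause of the other changes was not tested. Relative to the deposited scale, the scaling factors of the other scalings differ by 0.38 to 0.58 in log2 between old tumor-bearing and old naive tissue, and genes near the pseudocount move by less. No paired analysis was possible because each group is 1 library, and leaving out a replicate was not possible for the same reason. Egr2, on 78 to 184 reads, and Npas4 and Fosb in old tumor-bearing tissue, on 87 and 124, are the values that depth limits most.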

Other observations

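Heat shock genes encode chaperones and are another fast response of cells. In young tumor-bearing tissue 10 of 12 stood below naive tissue (median log2 ratio -0.55). Hspb1, a small heat shock protein, was at 23.4 FPKM in young naive tissue and at 7.57 FPKM in young tumor-bearing, 6.94 in old naive and 6.84 in old tumor-bearing tissue. Hspa1b, an inducible Hsp70 whose reads can be split with its close copy Hspa1a, was at 4.19, 2.62, 5.22 and 1.1 FPKM. In old tumor-bearing tissue 4 of 12 were at least 2-fold higher than in old naive tissue and 3 lower (median -0.39), close to the 20.6% and 31.4% and the median of -0.31 over all genes, with Hspa5, the chaperone of the endoplasmic reticulum, 3.5-fold higher (3.38 to 3.63).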
